A study of Mus musculus with 18 samples.

Results

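Extraembryonic endoderm genes were followed in 3 kinds of mouse sample, namely primary fibroblasts from embryos, brain from embryos at E18.5 and embryonic stem (ES) cells, with and without cyclin C (Ccnc), the regulatory partner of the Mediator kinases. The 9 genes were Gata4, Gata6, Sox17, Sox7, Foxa2, Cubn, Amn, Dab2 and Lama1, out of 17091 genes measured. They were chosen by their values on the ES cell arrays, because they stood high on 1 of these, knockout array 1, so their ES cell values are given as a description without a test. Each of the 3 cell types had 3 wild-type arrays, called control here as in the sample titles, and 3 arrays of the genotype CCNC-/-. The labels call the 3 samples of a group biological replicates, and do not say whether the ES cells were 1 clone or several, or how the alleles were deleted. P-values therefore measure the spread between these samples. All values are RMA log2 expression values on single-colour arrays, so that 1 unit is a doubling of signal.

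Extraembryonic endoderm is the lineage that lines the blastocyst cavity and later forms the parietal and visceral endoderm of the yolk sac. It arises beside the pluripotent epiblast when FGF-ERK signalling turns on Gata6, and Gata4, Sox17, Sox7 and Foxa2 follow. Visceral endoderm takes up maternal protein through cubilin, amnionless, megalin and the adaptor Dab2. Parietal endoderm secretes the laminin and collagen IV of Reichert's membrane. ES cells can turn into such cells in culture.

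Ccnc itself was lower on every knockout array of the ES cells, with 9.28, 9.47 and 9.14 in the controls and 6.68, 6.78 and 7.33 in the knockouts. It was 9.57 ± 0.03 (SD, n = 3) in control and 8.27 ± 0.03 in knockout fibroblasts, and 8.90 ± 0.30 against 8.21 ± 0.15 in brain. The 6 ES cell arrays correlated with each other at Pearson's r of 0.970 to 0.990 over all genes, and those with knockout array 1 at 0.970 to 0.981. Knockout array 1 had 104 genes at least 1 log2 unit above the highest of the other 5 ES cell arrays, which is 0.609% of all genes. The other 5 arrays had 0 to 23 such genes each. The 3′ to 5′ difference of the Actb control probe sets was 0.14 to 0.23 on the 6 arrays, and that of Gapdh -0.03 to -0.01. The mean of the 18S rRNA control probe sets was 9.59 on knockout array 1, 9.63 on knockout array 3 and 10.54 to 11.22 on the other 4. Y-linked transcripts, looked at after their values were seen, were high on the ES cell arrays numbered 1 of both genotypes (Eif2s3y 8.24 in control 1 and 7.46 in knockout 1, against 4.0 to 4.27 on the other 4). Fibroblasts showed the same split (8.12 in control 1 and 8.18 in knockout 1, against 4.15 to 4.46). In brain Eif2s3y differed by genotype instead, with 6.72, 6.77 and 6.40 in the controls and 7.89, 7.58 and 7.55 in the knockouts. Ddx3y did so too (7.80, 7.93 and 8.57 against 8.99, 8.79 and 9.01), while Uty overlapped (6.91 to 7.25 against 7.14 to 7.51). The part of rRNA signal, of the array split and of the Y-linked difference in brain in the endoderm values was not tested.

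The transcription factors were higher on knockout array 1 than on the other 5 ES cell arrays. Gata6, the GATA factor that starts the endoderm programme, read 7.81, 7.10 and 7.41 in controls 1, 2 and 3 and 10.80, 7.47 and 7.89 in knockouts 1, 2 and 3. Knockout array 1 stood 2.91 log2 units, or 7.53-fold, above the next array, knockout 3. Such a fold is understated where the lower array lies at background, which the files do not show. Knockouts 2 and 3 lay within or just above the control values, and both above controls 2 and 3. Gata4, its close relative, read 7.63, 7.35 and 7.07 in the controls and 9.95, 6.76 and 7.50 in the knockouts. Its knockout array 2 was the lowest of the 6, so the genotypes overlapped. More cells of an endoderm type and more of this RNA per cell cannot be told apart in these bulk samples.

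Sox17, an HMG-box factor of endoderm, read 7.22, 6.81 and 6.78 in the controls and 9.47, 6.56 and 6.84 in the knockouts. Sox7, of the same SOX subfamily, read 7.95, 8.28 and 8.38 in the controls and 10.67, 8.58 and 8.62 in the knockouts. With or without knockout array 1 the genotypes overlapped for Sox17. For Sox7 alone among the 9 genes control 1 was not above both other controls, and all 3 knockout arrays lay above all 3 controls. Foxa2, a forkhead factor of visceral and definitive endoderm, read 7.74, 7.32 and 7.54 in the controls and 9.59, 7.72 and 7.50 in the knockouts. Its excess on knockout array 1 was 1.84 log2 units, or 3.59-fold, the least of the 9 genes. With or without that array the genotypes of Foxa2 overlapped.

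The genes of the endocytic receptor complex stood out further. Cubn encodes cubilin, the large receptor that binds protein ligands, and read 8.37, 6.53 and 6.62 in the controls and 12.39, 7.40 and 7.31 in the knockouts. The excess of 4.02 log2 units, or 16.2-fold, ranked first among all 17091 genes. Control 1 was the next highest array and lay 1.79 above the mean of controls 2 and 3, and knockouts 2 and 3 lay between control 1 and the other controls. Dab2, the adaptor that links these receptors to clathrin, read 8.35, 7.62 and 7.43 in the controls and 11.92, 7.77 and 7.70 in the knockouts, an excess of 3.57, rank 2. Knockouts 2 and 3 lay within the range of the controls, between control 1 and the other controls. Its 3 further probe sets, which share all their values, gave 11.80 on knockout array 1 and 7.52 to 8.38 on the others. Amn encodes amnionless, which carries cubilin to the cell surface. It read 8.67, 8.61 and 8.58 in the controls and 12.50, 9.29 and 8.56 in the knockouts, with knockout 2 above the controls and knockout 3 just below them.

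Lama1, the laminin chain of early basement membranes, read 11.25, 10.04 and 9.89 in the controls and 13.54, 10.13 and 10.60 in the knockouts. Control 1 was again the second highest array, 1.28 above the mean of the other controls. Knockouts 2 and 3 lay between control 1 and the other controls, so the genotypes overlapped with or without knockout array 1.

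**Figure D1:**
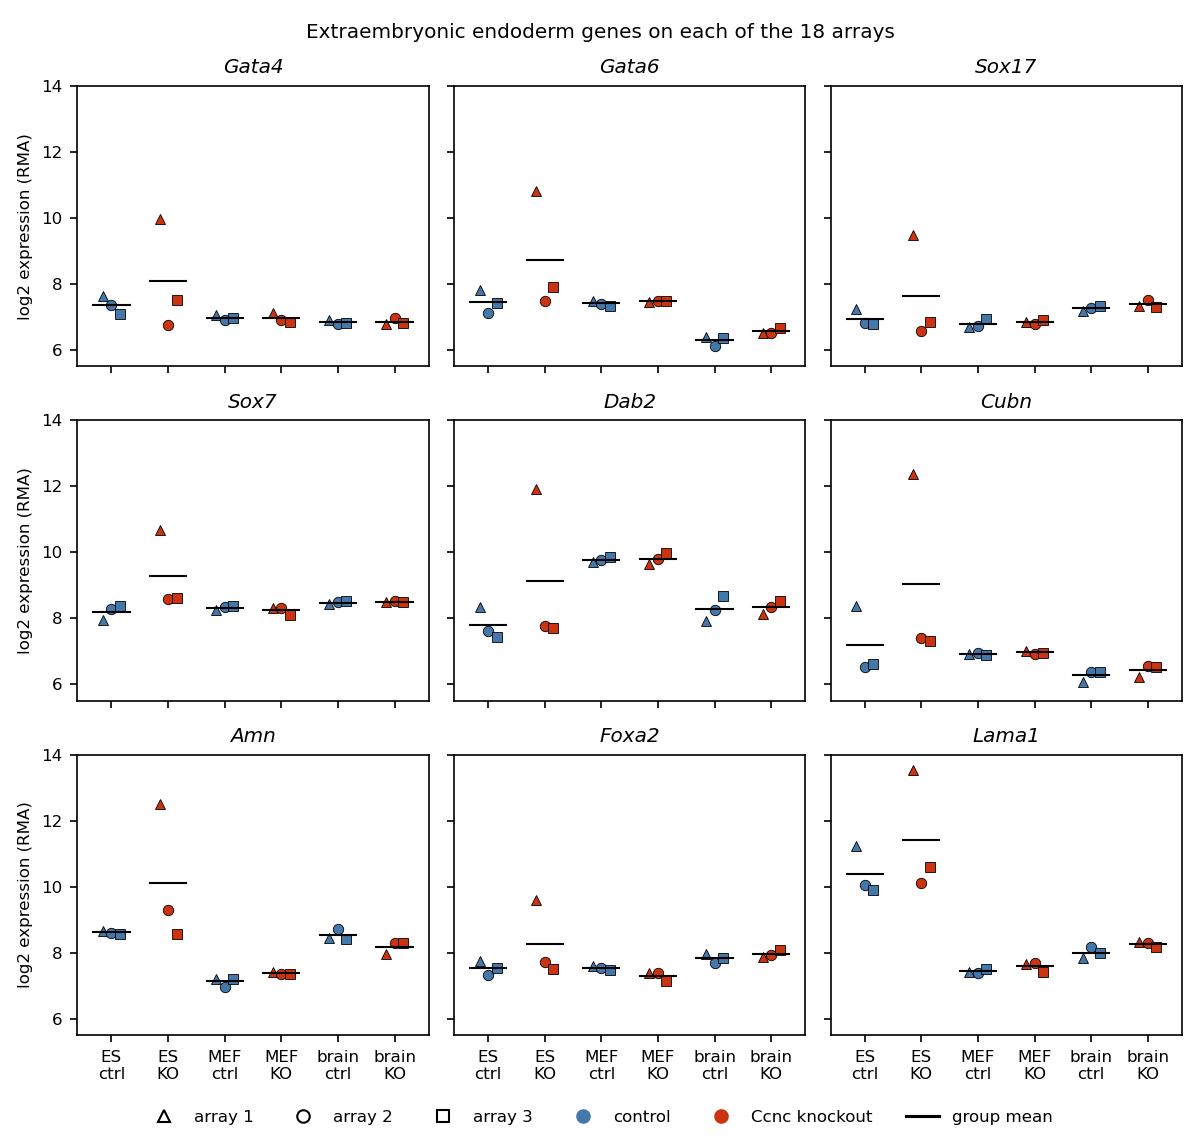
RMA log2 expression of the 9 genes (vertical axis) on each of the 18 arrays, by cell type and genotype (ctrl, control; KO, knockout). Symbols mark the array number and lines the group means of 3 arrays; ES cell knockout array 1 is the highest ES cell array in every panel, for example 12.39 for Cubn against 8.37 or less.

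Promoter windows of 4 of the 9 genes, Cubn, Amn, Dab2 and Foxa2, were at hand in RefSeq (GRCm38.p6), 7 windows in all, each from 250 bases before to 50 after an annotated start. They were searched on both strands for GATA-factor letters (AGATAA or AGATAG, also TGATAA or TGATAG), SOX letters (ACAATG or ACAAAG) and forkhead letters (TGTTTAC or TATTTAC), none of which overlapped in these windows. Among all 32851 windows of the table, 29.8% held the GATA letters, 28.6% the SOX letters and 6.54% the forkhead letters. The receptor complex genes are shown because they had the highest excess, and 1 Foxa2 window because it held both GATA and SOX letters. Capitals mark the matches, and each sequence is given 5′ to 3′ on the strand of the gene.
Cubn, chr2:13491827-13492126 (- strand): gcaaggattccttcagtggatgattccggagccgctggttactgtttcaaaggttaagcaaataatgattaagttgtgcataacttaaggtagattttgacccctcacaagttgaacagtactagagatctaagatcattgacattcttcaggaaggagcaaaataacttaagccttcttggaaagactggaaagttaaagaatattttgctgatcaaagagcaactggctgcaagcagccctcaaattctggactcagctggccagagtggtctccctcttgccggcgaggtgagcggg
Amn, chr12:111270846-111271145 (+ strand): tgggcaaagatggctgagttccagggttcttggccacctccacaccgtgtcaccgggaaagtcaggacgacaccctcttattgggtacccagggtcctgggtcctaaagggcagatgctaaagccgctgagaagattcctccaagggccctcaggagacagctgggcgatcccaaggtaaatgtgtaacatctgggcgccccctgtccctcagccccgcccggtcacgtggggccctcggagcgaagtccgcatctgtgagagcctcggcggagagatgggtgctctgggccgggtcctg
Dab2, chr15:6299539-6299838 (+ strand): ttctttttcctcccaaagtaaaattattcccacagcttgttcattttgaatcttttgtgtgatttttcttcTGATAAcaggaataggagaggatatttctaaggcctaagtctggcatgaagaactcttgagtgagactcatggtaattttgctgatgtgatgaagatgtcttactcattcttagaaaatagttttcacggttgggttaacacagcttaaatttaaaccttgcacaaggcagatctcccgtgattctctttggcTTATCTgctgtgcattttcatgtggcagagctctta
Foxa2, chr2:148045415-148045714 (- strand): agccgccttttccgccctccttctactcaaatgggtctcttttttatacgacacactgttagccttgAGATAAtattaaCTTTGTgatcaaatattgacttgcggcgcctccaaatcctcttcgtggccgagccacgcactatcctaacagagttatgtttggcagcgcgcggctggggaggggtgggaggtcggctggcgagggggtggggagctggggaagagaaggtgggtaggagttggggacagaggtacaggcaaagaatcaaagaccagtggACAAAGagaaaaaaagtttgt
The Dab2 window held 2 GATA matches, which begin at positions -179 and 15 from the start. The Foxa2 window held 1 GATA match at -183 and 2 SOX matches, at -171 and 30. No match was in the Cubn and Amn windows, nor in the second Dab2 window or the other 2 Foxa2 windows. A match describes letters, not binding.

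All 9 genes ranked among the first 32 by excess, which the choice of genes fixed. The median excess was 2.32 log2 units, against -0.23 over all genes. The mean over the 9 genes was 8.33, 7.74 and 7.74 on the control arrays and 11.20, 7.97 and 8.06 on the knockout arrays. Knockout minus control was 1.14 for that mean with all 6 arrays, 0.07 without knockout array 1 and 0.27 without both arrays numbered 1, an alternative added after seeing the data. With knockouts 2 and 3 set against controls 2 and 3, 7 of the 9 genes were higher (median 0.27), beside 45.2% of all genes (median -0.03). The differences ran from -0.10 for Sox17 to 0.78 for Cubn. Sox7 was the 1 gene of the 9 whose genotypes did not overlap, beside 15.6% of all genes. Since the genes were chosen on these arrays, nothing is read from that count.

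Control 1 was above the mean of controls 2 and 3 for 8 of the 9 genes, beside 8920 of all 17091 genes, and above both for the same 8. The median difference from that mean was 0.42, against 0.01 over all genes. Since the genes were chosen on the ES cell arrays, nothing is read from this count. How far the genes moved together beyond knockout array 1 differed between them. Over the other 5 ES cell arrays, each gene was correlated with the mean of the other 8. Pearson's r was 0.96 for Cubn, 0.94 for Lama1, 0.89 for Dab2, 0.77 for Gata6, 0.65 for Foxa2, 0.61 for Sox17 and 0.39 for Gata4. It was -0.07 for Amn and -0.52 for Sox7. These are descriptions over 5 arrays that share the contrast between control 1 and the rest.

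Other genes with a known place in these lineages were described from lists, none tested as a set. Of 14 parietal endoderm and basement membrane genes, 12 were highest on knockout array 1 and 8 by at least 1 unit, beside 19.0% and 0.609% of all genes. Srgn, a proteoglycan core protein, read 10.75, 7.44 and 7.82 in the controls and 14.09, 9.68 and 9.88 in the knockouts. Srgn was thus also high in control 1 and raised on knockouts 2 and 3 over controls 2 and 3. Pth1r, the parathyroid hormone receptor of parietal endoderm, reached 10.61 against 7.30 or less. The collagen IV chains Col4a1 (13.32) and Col4a2 (12.69) and the laminin chain Lamb1 (12.27) also exceeded the other arrays by at least 1 unit, while the nidogens Nid1 and Nid2 were highest elsewhere.

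Of 21 visceral endoderm genes, 13 were highest on knockout array 1 and 4 by at least 1 unit, beside 19.0% and 0.609% of all genes. Lrp2 was among these 4. Lrp2, which encodes megalin, the partner of cubilin, read 8.81, 7.92 and 7.65 in the controls and 11.29, 8.30 and 7.73 in the knockouts. Among the secreted plasma proteins of visceral endoderm, Ttr was 6.03 against 5.41 to 5.53. Afp was 4.98 against 4.70 to 5.80, and Rbp4, at 6.42, was lowest on knockout array 1. The list of definitive and anterior endoderm genes had 2 of 11 highest there (18.2%, beside 19.0% of all genes), 1 of them by at least 1 unit. It had 3 lowest there (27.3%, beside 21.6% of all genes). Dkk1, a secreted Wnt inhibitor, was 7.34 on knockout array 1 against 5.11 to 5.63. Otx2, an anterior homeobox gene, was 8.31 on knockout array 1 against 9.50 to 10.81. Of 12 paralogs of the 9 genes (such as Gata1, Foxa1 and Lama5), 1 was highest on knockout array 1 (8.33%, beside 19.0% of all genes). None was so by 1 unit, beside 0.609% of all genes.

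**Figure D2:**
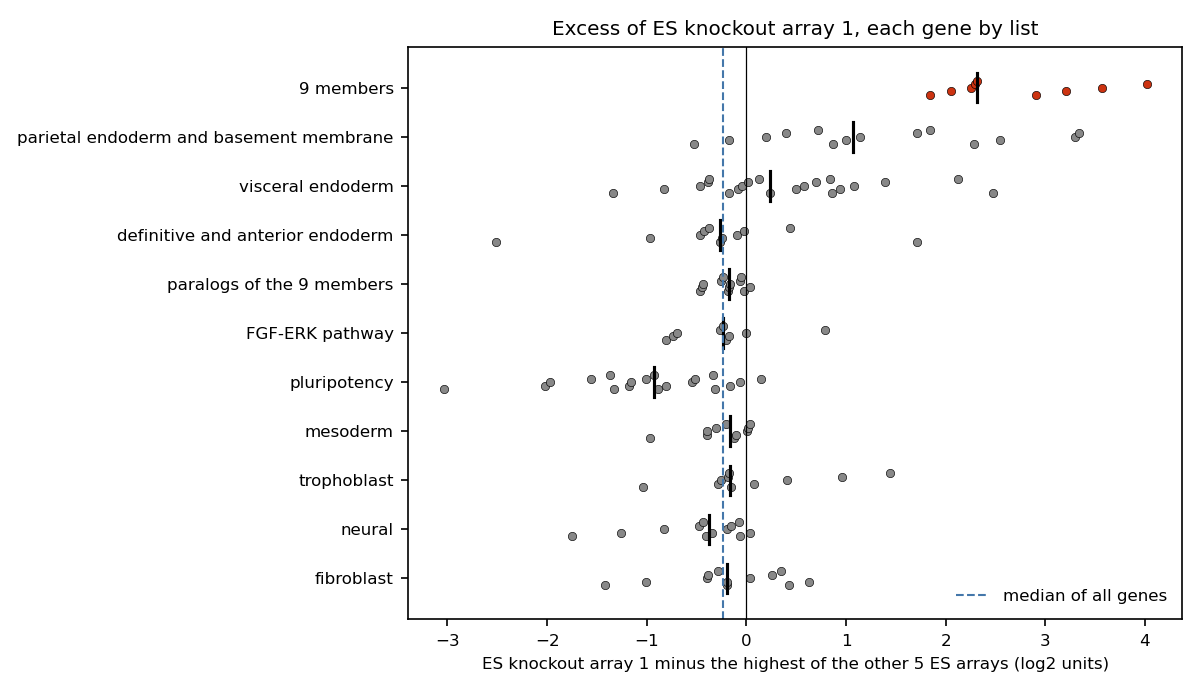
Excess of ES cell knockout array 1 over the highest of the other 5 ES cell arrays (horizontal axis, log2 units), 1 point per gene, by list. Black bars are list medians and the dashed line the median of all genes (-0.23); the 9 genes, chosen for this, lie between 1.84 and 4.02, and the parietal list has the next highest median (1.07).

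Pluripotency genes tended to be low on that array. Of 19 measured, 12 were lowest on knockout array 1 (21.6% of all genes were). The median excess was -0.93, against -0.23 over all genes. Nanog, also on this list of 20, was not among the genes measured. Prdm14, a repressor of differentiation, read 8.14, 10.21 and 9.80 in the controls and 7.17, 10.05 and 9.56 in the knockouts, low on both arrays numbered 1. Pou5f1 (Oct4) was 13.70 there against 13.83 to 14.03. Of 9 FGF-ERK pathway genes, 2 were highest on knockout array 1 (22.2%, beside 19.0% of all genes), with Fgfr2 at 9.89 against 8.42 to 9.11. Of the mesoderm genes 3 of 10 were highest there, of the neural 1 of 12 and of the trophoblast 4 of 10, beside 19.0% of all genes. Their median excesses were -0.16, -0.37 and -0.16, against -0.23 over all genes. Krt7, an epithelial keratin on the trophoblast list, was 10.83 against 7.91 to 9.39. Fibroblast genes, which would mark feeder cells, had list means of 7.55 to 7.85 on the 6 ES cell arrays and 12.77 to 12.82 in control fibroblasts. Knockout array 1 had the highest of the 6 (7.85), and 5 of 12 of these genes were highest there, beside 19.0% of all genes. Their part in the endoderm values was not tested.

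**Figure D3:**
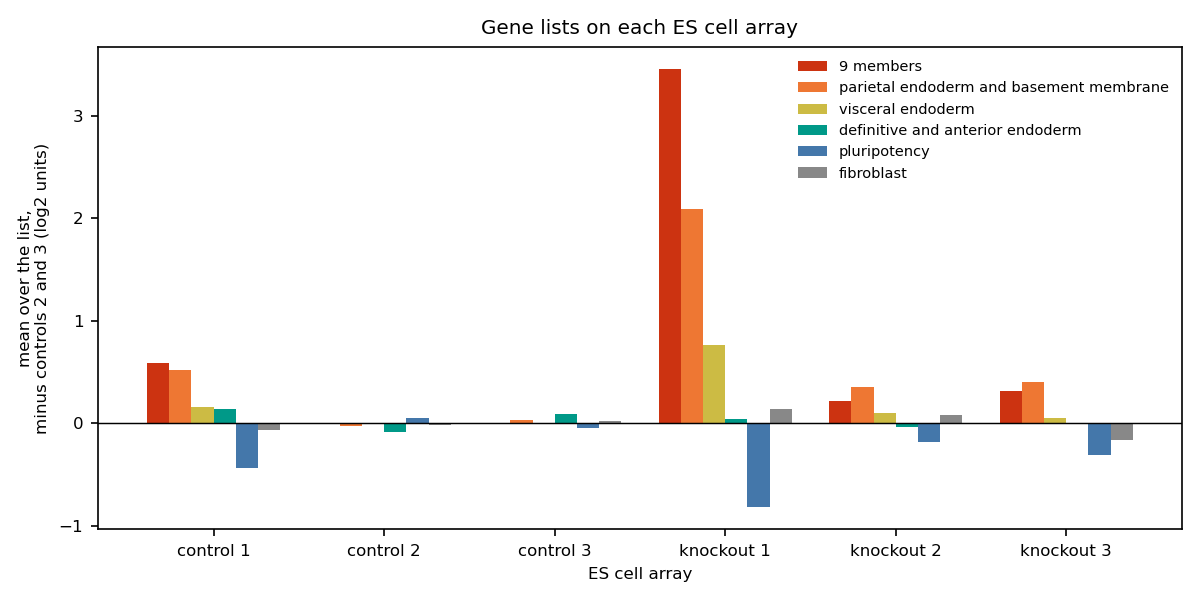
Mean of each gene list on each ES cell array minus its mean on controls 2 and 3 (vertical axis, log2 units). The 9 genes stand at 3.46 on knockout array 1 and 0.59 on control 1, and the pluripotency genes at -0.82 and -0.44 on the same arrays.

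Genes outside the set with the most similar profile over the 6 ES cell arrays, by Pearson's r with the mean of the 9 among genes with an excess of at least 1, were Dram1, Ctsh and Lamc1 (r = 0.998 each), Pga5 and Mtmr11 (0.997), Pdzd3, AA986860 and Hkdc1 (0.996), Glipr1 (0.995) and Klb (0.994). These values rest mainly on knockout array 1. The highest excesses outside the set were those of Ctsh (3.38), a lysosomal protease, Srgn (3.34) and Pth1r (3.30).

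In fibroblasts and brain the 9 genes were not raised as they were on ES cell knockout array 1. Their mean per array was 7.55 to 7.65 over the 6 fibroblast arrays and 7.46 to 7.66 over the 6 brain arrays. Among the controls, Lama1 was 10.39 ± 0.75 (SD, n = 3) in ES cells, 8.0 ± 0.16 in brain and 7.44 ± 0.07 in fibroblasts, with no overlap between arrays. Dab2 was highest in fibroblasts (9.78 against 8.28 in brain and 7.80 in ES cells, with brain and ES cells overlapping). Amn was 8.62 in ES cells and 8.54 in brain, which overlapped, and 7.13 in fibroblasts. Gata4 was lowest in brain (6.83), then fibroblasts (6.96) and ES cells (7.35), each apart from the next. Gata6 was 7.44 in ES cells and 7.41 in fibroblasts, which overlapped, and 6.29 in brain. Cubn had means in the same order, at 7.18 ± 1.04, 6.92 ± 0.02 and 6.27 ± 0.17. Its ES cells and fibroblasts overlapped, and ES cell controls 2 and 3 (6.53 and 6.62) lay below the control fibroblasts (6.90 to 6.94). Sox7 (8.48 in brain, 8.32 in fibroblasts, 8.21 in ES cells) and Foxa2 (7.83, 7.54 and 7.54) were highest in brain, with fibroblasts and ES cells overlapping for both. Sox17 was 7.25 in brain, 6.94 in ES cells and 6.78 in fibroblasts, with overlap between neighbours. The files give no call of presence, so a level near 7 is not shown to lie above background.

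In fibroblasts without cyclin C, limma called none of the 9 genes (0 of 9 at an adjusted p below 0.05, 2 at an unadjusted p below 0.05), beside 12% of all genes called and 26.6% at an unadjusted p below 0.05. Amn read 7.21, 6.97 and 7.20 in the control and 7.40, 7.36 and 7.36 in the knockout fibroblasts. The knockout arrays all lay above the controls, 0.24 higher on average (SE 0.08, adjusted p = 0.0745 in limma). Foxa2 read 7.59, 7.54 and 7.48 in the controls and 7.38, 7.39 and 7.15 in the knockouts, all lower (-0.23, SE 0.08, adjusted p = 0.0934 in limma). These 2 of 9 genes had groups that did not overlap, beside 30.9% of all genes. Dab2, the 1 member highest in fibroblasts, read 9.70, 9.77 and 9.86 in the controls and 9.65, 9.81 and 9.97 in the knockouts, which overlapped. With the replicate number as a block limma again called 0 of 9, beside 17.3% of all genes, with adjusted p of 0.0501 for Amn and 0.0503 for Foxa2. The other 7 had adjusted p from 0.321 to 0.944 in limma, and the median log2 fold change of the 9 was 0.04 against 0.01 over all genes.

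In brain limma called 0 of the 9 genes and 0.00585% of all genes, with 3 of the 9 at an unadjusted p below 0.05, beside 7.33% of all genes. Amn read 8.45, 8.73 and 8.43 in the controls and 7.96, 8.29 and 8.29 in the knockouts, all lower (-0.36, SE 0.12, limma adjusted p = 0.627). Gata6 read 6.40, 6.11 and 6.35 in the controls and 6.5, 6.51 and 6.65 in the knockouts, all higher (0.27, SE 0.10, limma adjusted p = 0.641). Lama1 read 7.83, 8.16 and 8.0 in the controls and 8.32, 8.29 and 8.16 in the knockouts, 0.26 higher on average (SE 0.10, adjusted p = 0.662 in limma). The arrays of these 3 of 9 genes did not overlap (for Lama1 by less than the second decimal), beside 14% of all genes. Cubn read 6.07, 6.38 and 6.36 in the controls and 6.21, 6.54 and 6.51 in the knockouts, higher in 3 of 3 same-numbered pairs but overlapping (0.15, SE 0.12, adjusted p = 0.806 in limma). With the replicate block limma called 0 of 9 in brain, beside 0.0878% of all genes. The median log2 fold change was 0.13, against 0 over all genes.

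The difference of the knockout effect between fibroblasts and brain was called for 0 of the 9 genes in the limma fit of all 18 arrays, beside 0.334% of all genes, and none of the 9 was at an unadjusted p below 0.05, beside 9.79% of all genes. For Amn it was 0.60 (SE 0.86, adjusted p = 0.919). That fit shares 1 spread among all arrays, ES cell knockout array 1 included. In limma on the 12 fibroblast and brain arrays, added after seeing the data, the SE was 0.15 and the adjusted p 0.0581, with 2.4% of all genes called. With the replicate number as a block in the same 12 arrays, the limma adjusted p was 0.0126, with 9.71% of all genes called.

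**Figure D4:**
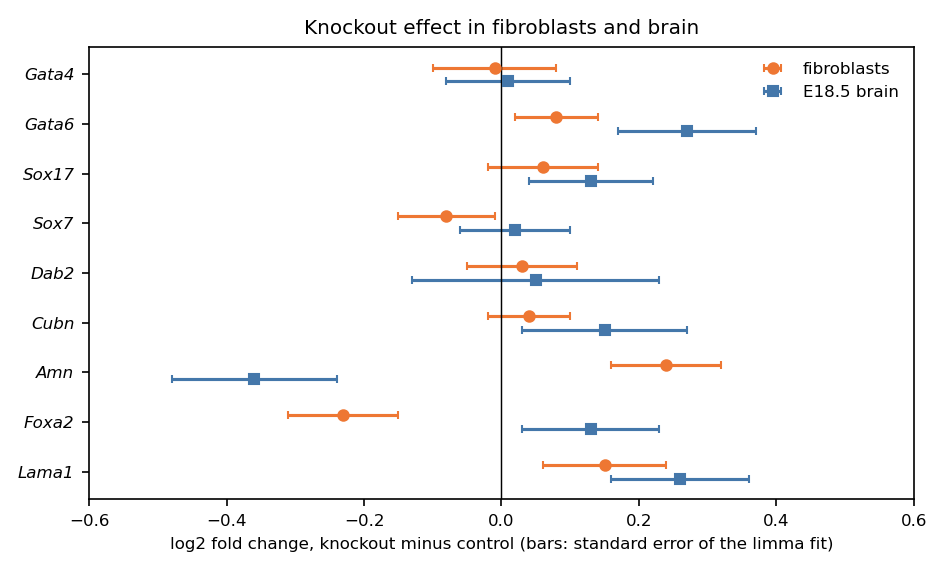
Log2 fold change of the 9 genes, knockout minus control (horizontal axis), in fibroblasts (circles) and brain (squares), 3 against 3 arrays each, with the standard error of the limma fit. All values lie between -0.36 and 0.27, and Amn has opposite signs in the 2 (0.24 and -0.36).

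Of 127 genes on the other lists, limma called 23 in fibroblasts (18.1%, beside 12% of all genes) and 0 in brain (beside 0.00585% of all genes) at an adjusted p below 0.05. On the parietal and basement membrane list, Col4a1 (0.24), Col4a2 (0.37), Nid1 (0.24) and Plat (0.25) rose and Pdgfra (-1.11) and Thbd (-0.36) fell, while 8 of 14 did not pass. With the replicate block 6 rose and 3 fell. None of the 21 visceral endoderm genes passed without the block, and 1 rose with it. On the fibroblast list 6 of 12 fell (among them Dcn and Lum) and none rose. The pluripotency genes Klf2 and Klf4, Mixl1 of the definitive endoderm list, Spry2 of the FGF-ERK list and Gata3, a paralog that is also on the trophoblast list, fell. Krt7 rose, as did 3 of 12 neural genes (Nes, Sox1 and Tubb3), while Map2 and Zic1 of that list fell and no mesoderm gene passed.

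Leaving out 1 fibroblast array at a time kept 12 of these 23 calls in every fit and lost the other 11 in at least 1. Col4a1 lost its call in limma without control array 3 (adjusted p = 0.0575) or knockout array 2 (0.0688), with a log2 fold change of 0.21 to 0.27 over the 6 fits. Nid1 lost its call without control array 2 (0.0596), control array 3 (0.0877) or knockout array 2 (0.104) in limma, with 0.19 to 0.28. Plat lost its call without control array 1 (0.0587), control array 3 (0.0557) or knockout array 2 (0.072) in limma, with 0.21 to 0.29. Mixl1, at the threshold with all arrays, lost its call in all 6 fits (limma adjusted p 0.0586 to 0.164) and with the replicate block (0.0546). Spry2, Sox1 and Map2 lost theirs in 5 of 6 fits, Gata3, Thy1 and Postn in 4, and Twist2 in 2, each keeping its direction.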

How the data were processed

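RNA from 18 samples (3 cell types, 2 genotypes, 3 arrays a group) was measured on arrays. The deposited values are log2 expression values that the authors made with RMA, per the submitters' processing notes. The array type and RMA version, and whether the 18 arrays were processed in 1 run, are given by no label used here. RMA makes array distributions alike, and the number of arrays limits the precision. Of 24121 transcript probe sets, 22560 could be given a single symbol from RefSeq (GRCm38.p6), and the probe set with the highest mean stood for each of 17091 genes. Other probe sets were left out.

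Knockout and control were compared per cell type with limma 3.58.1 in R 4.3.3 (lmFit, eBayes with an intensity trend, Benjamini-Hochberg adjustment, called below 0.05), checked on simulated data. Differences of effects came from 1 fit of all arrays. The 9 genes, the lists (parietal, visceral and definitive endoderm, paralogs, FGF-ERK, pluripotency, mesoderm, trophoblast, neural, fibroblast) and the tests were chosen with earlier results of these data known. Named genes are the 9, Ccnc, per list the 4 with the largest and the 2 with the smallest excess, list genes called, and the 10 genes most alike and the 10 with the largest excess outside the set; other list genes were named after their values were seen. Same-numbered knockout and control arrays deviated together in fibroblasts (r = 0.36, 0.16, 0.19) and brain (0.29, 0.35, 0.47) but not in every ES cell pair (0.37, 0.32, 0.08). Differently numbered arrays gave r of -0.31 to 0.14 in fibroblasts, -0.31 to 0.01 in brain and -0.38 to 0.2 in ES cells. The array numbers come from the sample titles. Alternatives were the replicate block, probe set choice, a filter at the 40th percentile, normalization, limma settings and leaving out each array.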

Additional observations from a re-analysis of the deposited data

Results flagged for a closer look

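The knockout effect on Amn had opposite signs in fibroblasts and brain, with every knockout array above the controls in one and below them in the other. The difference was 0.60 log2 units (limma adjusted p = 0.919 over 18 arrays, 0.0581 over the 12 fibroblast and brain arrays, and 0.0126 over these 12 with the replicate block).

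Klf2, a pluripotency list gene, differed between the tissues by -1.24 log2 units (SE 0.23, limma adjusted p = 0.0293). It went from 9.30 to 8.25 in fibroblasts and from 7.48 to 7.68 in brain. The difference was not called in 10 of the 12 fits that left out 1 fibroblast or brain array (adjusted p 0.0373 to 0.0965 over the 12).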

How the results depend on the processing

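No member was called in fibroblasts or brain under any of the alternatives, the replicate block and each left-out array included. The replicate block raised the calls among all genes from 2058 to 2960 in fibroblasts and from 1 to 15 in brain, and changed no other call among the 9 genes than that of the Amn difference. For that difference, 1 member was called on the 12 fibroblast and brain arrays with the replicate block, against 0 in each other fit. The 23 list genes called in fibroblasts became 3 in 1 fit of all 18 arrays, and 13 to 22 when 1 array was left out. Col4a1, Nid1 and Plat lost their calls in 3 to 5 alternatives each, while Col4a2, Thbd and Pdgfra lost theirs only in the fit of all 18 arrays. In ES cells, the mean difference over the 9 genes was 0.07 without knockout array 1 and 1.69 without knockout array 2. A filter at the 40th percentile kept 4 of the 9 genes (Sox7, Dab2, Amn and Lama1). Quantile normalization and median centring moved the ES cell minus fibroblast control difference of the mean from 0.35 to 0.27 and 0.29. With 3 arrays a group, small changes in single genes could be missed.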
